A study of Mus musculus with 64 samples.

Results

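The 4 mouse genes that encode the TCF and LEF proteins, Lef1, Tcf7, Tcf7l1 and Tcf7l2, were examined as places where these proteins and their partners bind. Peaks were taken from 60 ChIP-seq lists when their summit lay inside the gene body or within 30 kb of either end, and this held for 6101 of 12175735 peaks. Of these, 5791 had their summit outside the coding exons and 310 inside, and the latter were set apart because coding exons of Tcf7l1 carried strong peaks that went with the replicate number. The loci together span 739 kb, which is 0.0271% of the assembled chromosomes, and held 0.0501% of all peaks.

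TCF and LEF proteins are the DNA-binding partners of β-catenin, the protein that carries the WNT signal into the nucleus. Without β-catenin they recruit corepressors of the TLE family, and with it they can activate transcription. LEF1 and TCF7 act mostly as activators and are themselves well-known WNT target genes, TCF7L1 acts mostly as a repressor in embryonic stem cells, and TCF7L2 does both. SOX2, needed for pluripotency, shares many sites with TCF7L1 in stem cells.

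Binding was mapped for SOX2, β-catenin, LEF1, TCF7L1 and TCF7L2, the last of these named TCF4 and TCF7L1 named TCF3 by the labels, with 3 biological replicates in each of 4 conditions, and TCF7 was not assayed. Naive ESC were wild-type XY HM1 TetON embryonic stem cells in 2i medium, with a time point of 72 h. The 2i medium contains CHIR99021, a GSK3 inhibitor that activates WNT signalling, and PD0325901. CHIR99021 was thus used in all 4 conditions. CEpiLC, caudal epiblast-like cells, came from the same line after 72 h of differentiation with FGF and LGK974, a blocker of WNT secretion, to which the GSK3 inhibitor CHIR99021 was added for the last day. SOX2-ON and SOX2-OFF cells came from a derived clonal line that lacks endogenous Sox2 and carries a SOX2 transgene under doxycycline control. Both were differentiated like CEpiLC, SOX2-ON with doxycycline kept at 1 µg/ml and SOX2-OFF with doxycycline withdrawn, so that naive ESC and SOX2-ON stand for high SOX2, and the other two conditions for low SOX2. SOX2 protein falls gradually after withdrawal, and some may remain in SOX2-OFF. Each comparison of high with low SOX2 therefore holds 1 pair of conditions that differ in stage and medium and 1 pair that differs in doxycycline in a single line.

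The lists held from 1628 to 991719 peaks, with a median of 106232, and 10 lists held fewer than 20000. The shortest were CEpiLC TCF7L1 replicate 1 with 1628 peaks, SOX2-OFF β-catenin replicate 2 with 3423, SOX2-OFF TCF7L2 replicate 2 with 4134, CEpiLC LEF1 replicate 1 with 4443 and CEpiLC TCF7L2 replicate 1 with 4627. No read counts come with the lists, and their depth is unknown. To compare lists of such unequal length, occupancy was scored in the 20000 peaks of each list with the highest deposited fold, which divides the signal at the summit by the local background. The rank of a peak is its place in that order, with 1 the strongest. The Sox2 coding exon held a summit in 2 libraries of naive ESC, 6 from CEpiLC, 7 with SOX2-ON and 3 with SOX2-OFF, each out of 15, and did not separate the levels of SOX2. SOX2-ON and SOX2-OFF share one edited gene and transgene, and naive ESC and CEpiLC share the wild-type gene. This count therefore could not check the level of SOX2.

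Summits at most 200 bp apart in any of the 60 lists were joined into 294 sites, of which 200 were found in a single library. A site was called reproducible when all 3 libraries of at least 1 group of target and condition had a summit there, and 39 sites passed, 12 at Lef1, 7 at Tcf7, 12 at Tcf7l1 and 8 at Tcf7l2. They were 0.150% of the 26016 reproducible sites of the genome. Of the 39, 19 lay in introns of the gene that names the locus, 12 between genes and the rest in neighbouring or overlapping genes, and 8 of the 39 lay within 1 kb of an annotated transcript start. SOX2 was reproducible at 20 of them, β-catenin at 22, TCF7L1 at 21, TCF7L2 at 7 and LEF1 at 6. Single-target sites made up 48.7% of the 39, against 54.8% over the genome.

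**Figure D1:**
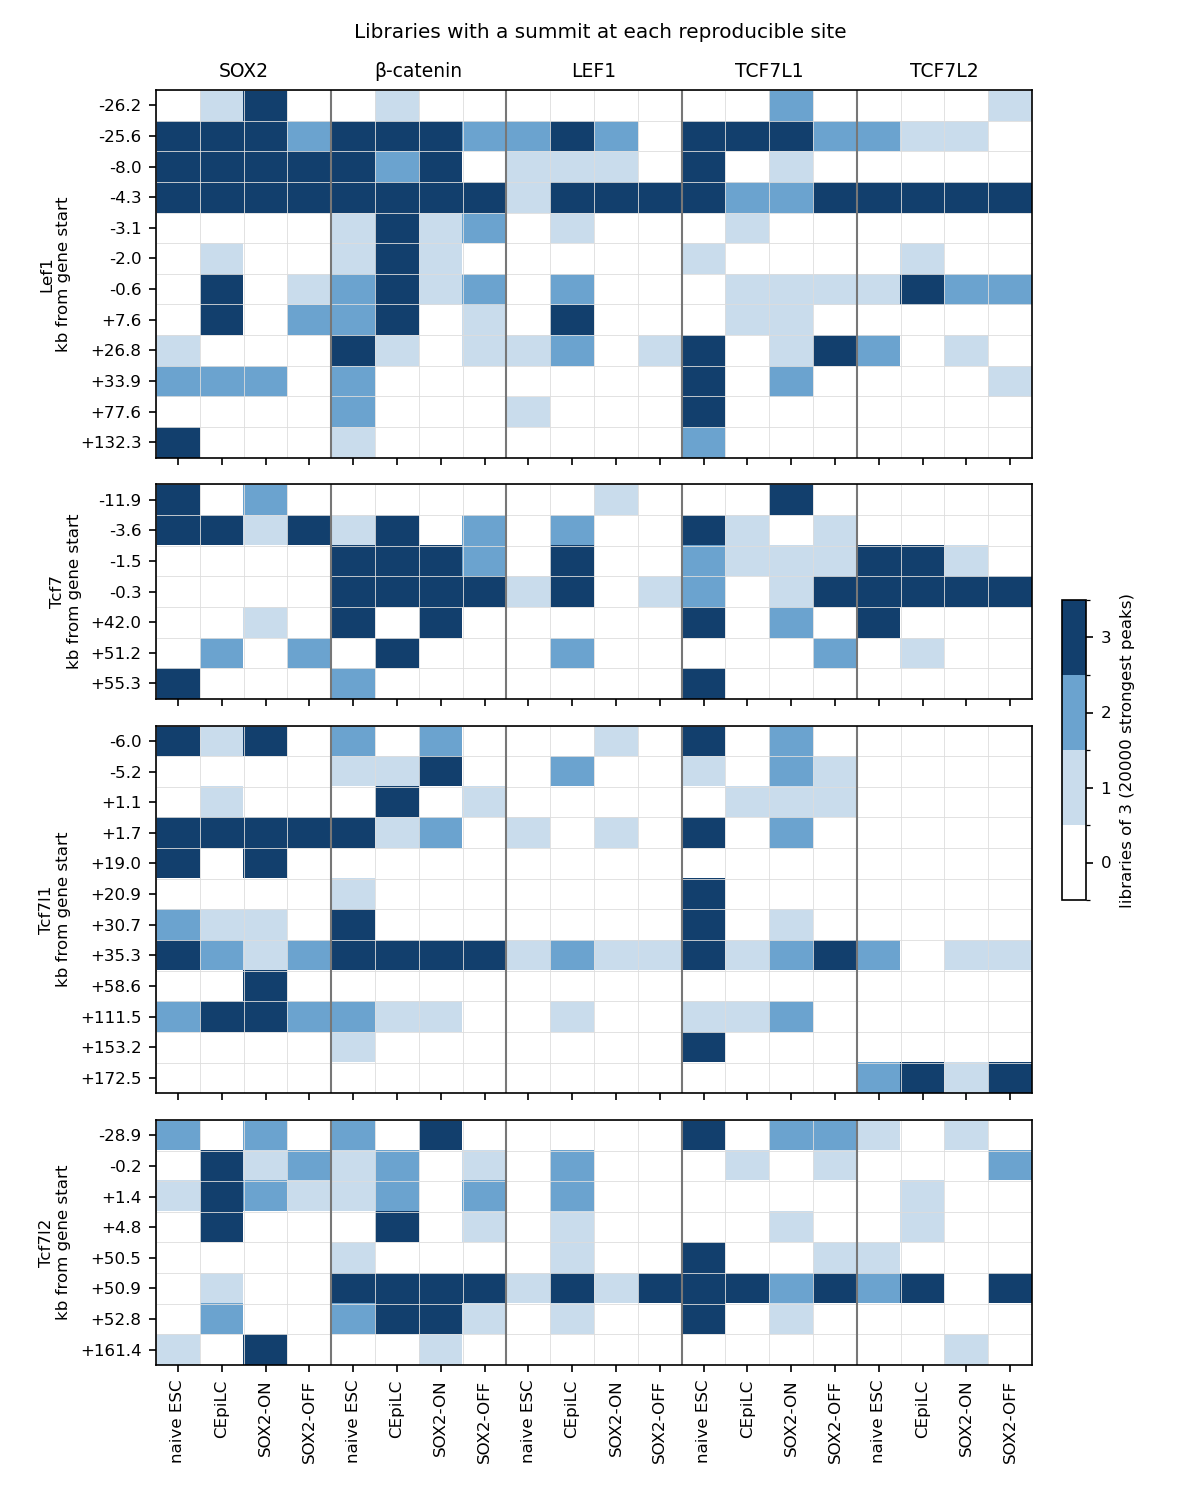
Number of libraries, from 0 to 3, with a summit among the 20000 strongest peaks at each of the 39 reproducible sites (rows, in kb from the gene start in the direction of transcription) in the 20 groups of target and condition (columns). Each gene has a row that is dark across all 4 β-catenin columns, at −4.3 kb of Lef1, −0.3 kb of Tcf7, +35.3 kb of Tcf7l1 and +50.9 kb of Tcf7l2.

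At each of the 4 genes a single site carried β-catenin in 12 of 12 libraries, across both cell lines and both SOX2 levels. These were 4 of the 30 sites with β-catenin in at least 3 of 12 libraries, beside 4.49% of such sites over the genome, and 4.13% of the loci of 21938 protein-coding genes drawn in the same way held such a site. That share was not matched for length, and the loci here span 90.6 kb at Tcf7 to 252 kb at Tcf7l2. SOX2 was in 12 of 12 libraries at 3 of 25 sites of the loci (3.18% over the genome) and TCF7L2 at 2 of 11 (13.8%). These were also the sites with the most groups at 3 of 3 libraries in each locus, 17 of 20 groups at Lef1, 10 at Tcf7, 7 at Tcf7l1 and 11 at Tcf7l2. They lay 4.3 kb upstream of the Lef1 start (chr3:131105858-131106127, between genes), 0.3 kb upstream of the Tcf7 start (chr11:52283333-52283402, in an intron of the noncoding gene A630014C17Rik), 35.3 kb into Tcf7l1 (chr6:72753904-72754065, intron) and 50.9 kb into Tcf7l2 (chr19:55792569-55792778, intron). The nearest coding exons were 5345, 1144, 34222 and 25043 bp away.

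The sequence of 201 bp around the strongest summit of each of these sites is shown because each holds 1 match to the letters bound by TCF and LEF proteins. All are from GRCm38 (RefSeq), plus strand, and capitals mark CTTTGAA or CTTTGAT, the TCF letters, or CATTGT or CTTTGT, the SOX letters, on either strand.
Lef1 −4.3 kb (chr3:131106027-131106227): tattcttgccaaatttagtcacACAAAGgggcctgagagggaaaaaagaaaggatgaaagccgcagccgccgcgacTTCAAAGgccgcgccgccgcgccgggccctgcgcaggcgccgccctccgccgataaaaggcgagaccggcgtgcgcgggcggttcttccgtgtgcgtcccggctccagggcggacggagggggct
Tcf7 −0.3 kb (chr11:52283261-52283461): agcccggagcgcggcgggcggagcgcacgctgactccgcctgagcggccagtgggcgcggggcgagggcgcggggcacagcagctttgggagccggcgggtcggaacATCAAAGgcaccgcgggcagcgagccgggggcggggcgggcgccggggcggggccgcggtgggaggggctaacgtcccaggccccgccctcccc
Tcf7l1 +35.3 kb (chr6:72753889-72754089): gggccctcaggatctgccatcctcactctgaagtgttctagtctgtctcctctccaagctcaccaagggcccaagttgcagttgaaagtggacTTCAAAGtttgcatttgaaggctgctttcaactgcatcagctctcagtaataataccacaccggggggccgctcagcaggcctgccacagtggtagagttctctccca
Tcf7l2 +50.9 kb (chr19:55792621-55792821): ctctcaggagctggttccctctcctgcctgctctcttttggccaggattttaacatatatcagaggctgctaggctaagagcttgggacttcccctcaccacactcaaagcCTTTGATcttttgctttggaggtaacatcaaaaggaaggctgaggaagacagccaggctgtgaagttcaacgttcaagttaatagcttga

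The TCF letters lay 24 bp from the summit at Lef1, 7 bp at Tcf7, 7 bp at Tcf7l1 and 11 bp at Tcf7l2. Of the 829 sites of the genome with β-catenin in 12 of 12 libraries, 67.1% held TCF letters in a window of this length. SOX letters were present in the Lef1 window and not in the other three. Over all 39 reproducible sites of the loci, 38.5% held TCF letters and 48.7% held SOX letters, beside 31.4% and 48.7% of the 26016 sites of the genome.

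A further 3 windows are shown, chosen after the values were seen, because SOX2 or β-catenin differed there between high and low SOX2 in strength or presence, as given below. In the second of them the SOX letters searched are absent, and the capitals mark ATTGT and ATGCAAA with any base between, SOX letters joined to octamer letters, which were added to the search after this window had been read.
Tcf7l1 +1.7 kb (chr6:72787434-72787634): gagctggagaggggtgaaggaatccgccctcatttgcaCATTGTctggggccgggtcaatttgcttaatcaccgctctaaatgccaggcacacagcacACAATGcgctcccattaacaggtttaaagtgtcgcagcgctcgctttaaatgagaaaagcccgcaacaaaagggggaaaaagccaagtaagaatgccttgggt
Tcf7 −3.6 kb (chr11:52286482-52286682): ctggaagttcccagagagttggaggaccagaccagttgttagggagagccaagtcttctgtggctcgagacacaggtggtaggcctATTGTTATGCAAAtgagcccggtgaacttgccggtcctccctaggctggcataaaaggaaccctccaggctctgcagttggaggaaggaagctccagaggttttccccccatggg
Tcf7 +42.0 kb (chr11:52240923-52241123): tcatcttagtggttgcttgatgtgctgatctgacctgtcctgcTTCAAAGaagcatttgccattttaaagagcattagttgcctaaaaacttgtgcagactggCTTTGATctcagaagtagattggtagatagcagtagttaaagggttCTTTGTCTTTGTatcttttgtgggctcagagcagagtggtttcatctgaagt

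The Tcf7l1 window had CATTGT 62 bp from the summit on the plus strand and 2 bp from it on the minus strand. The Tcf7 window at +42.0 kb had TCF letters 3 and 57 bp from the summit and CTTTGT at 49 and 55 bp. The joined SOX and octamer letters occurred in 43 of the 26016 reproducible sites of the genome (0.165%), and the Tcf7 site at −3.6 kb was the single one of the 39 with them.

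At Lef1, which encodes a TCF/LEF protein that mostly activates, the site 4.3 kb upstream was occupied by SOX2, β-catenin and TCF7L2 in every library. TCF7L2 was strong throughout, with ranks of 187, 161 and 72 in naive ESC, 136, 513 and 181 in CEpiLC, 56, 31 and 188 in SOX2-ON and 74, 81 and 214 in SOX2-OFF, and the 4 conditions overlapped. β-catenin had ranks of 538, 503 and 560 in naive ESC, 450, 576 and 321 in CEpiLC, 19, 61 and 49 in SOX2-ON and 302, 168 and 314 in SOX2-OFF. All 3 SOX2-ON libraries thus ranked the site above all other β-catenin libraries, with deposited folds of 100.0, 54.5 and 81.3 against 21.4 to 56.2 in SOX2-OFF, where the fold ranges overlapped. As the strongest β-catenin summit of the locus, its strength (log10 of 20001 over the rank) was 2.72 ± 0.27 with SOX2-ON against 1.90 ± 0.15 with SOX2-OFF (SD, n = 3), a difference of 0.82. Its two-sided exact permutation p was 0.1, and 3 libraries against 3 cannot give a smaller one. The share of all genes with such a separation of SOX2-ON from SOX2-OFF was not counted. Between naive ESC and CEpiLC the difference was −0.09 (exact permutation p = 0.4).

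LEF1 itself occupied the site at −4.3 kb of Lef1 in 3 of 3 libraries of each condition but naive ESC, where it did in 1 of 3. The LEF1 ranks were 781, 1167 and 2445 in CEpiLC, 8788, 1127 and 3267 in SOX2-ON and 3044, 12197 and 10069 in SOX2-OFF. In naive ESC the rank was 306 in replicate 2, a peak at rank 65897 lay outside the strongest 20000 in replicate 3, and replicate 1 had no peak. TCF7L1 was found in 3 libraries of naive ESC and of SOX2-OFF and in 2 libraries of CEpiLC and of SOX2-ON, replicate 1 being without a peak in both.

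The next sites in order were 25.6 kb upstream (chr3:131084784-131084887, 10 groups at 3 of 3) and 8.0 kb upstream (chr3:131102368-131102495, 7 groups). At −25.6 kb SOX2 and β-catenin were present in 3 of 3 libraries of naive ESC, CEpiLC and SOX2-ON and in 2 of 3 of SOX2-OFF. TCF7L1 ranks there were 1672, 2234 and 1628 in naive ESC, 863, 1516 and 1459 in CEpiLC and 4273, 1078 and 624 in SOX2-ON, so that this was the only reproducible Lef1 site with TCF7L1 in all 3 libraries of 3 conditions. At −8.0 kb SOX2 was present in 12 of 12 libraries, with ranks from 323 to 7921, whereas TCF7L1 was present in 3 of 3 naive ESC and 0 of 3 CEpiLC libraries and β-catenin in 3 of 3 SOX2-ON but 0 of 3 SOX2-OFF libraries. A weaker β-catenin peak at −8.0 kb did lie in 2 of the 3 full SOX2-OFF lists.

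Nearer the Lef1 start, β-catenin was most regular in CEpiLC. Sites at −0.6 and +7.6 kb, and those at −3.1 and −2.0 kb, which were chosen after their values were seen, each had β-catenin in 3 of 3 CEpiLC libraries and in at most 2 of 3 of every other condition. The CEpiLC β-catenin lists hold 10930 to 20453 peaks and enter almost whole, and in the full lists β-catenin was also present in 3 of 3 naive ESC libraries at −0.6 kb and in 3 of 3 SOX2-ON libraries at −2.0 kb. SOX2 was present at −0.6 kb (chr3:131109767-131110771, in a noncoding exon of Gm43352) and at +7.6 kb (chr3:131117996-131118259, intron) in 3 of 3 CEpiLC and 0 of 3 naive ESC libraries. LEF1 at +7.6 kb followed the same pattern, with ranks of 3873, 7919 and 1674 in CEpiLC and no peak in any naive ESC list. SOX2 peaks at both sites did occur in all 3 full naive ESC lists, at +7.6 kb at ranks of 55505, 42207 and 67579. Calls in naive ESC lay at some of the sites farther from the start, mostly for TCF7L1. TCF7L1 was present in 3 of 3 naive ESC libraries at +26.8, +33.9 and +77.6 kb with no peak in any full CEpiLC list. Over the genome 47.4% of TCF7L1 sites were called in naive ESC against CEpiLC. At +26.8 kb TCF7L1 was also present in 3 of 3 SOX2-OFF libraries. SOX2 was present in 3 of 3 naive ESC libraries at +132.3 kb with no peak in any full CEpiLC list. That site lies in an intron of the neighbouring gene Hadh, 148 bp from a coding exon. At −26.2 kb SOX2 was called in SOX2-ON.

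At Tcf7, the other mostly activating member, the site next to the gene start was one of β-catenin and TCF7L2 without SOX2. TCF7L2 was found in 12 of 12 libraries at −0.3 kb, with ranks of 489, 891 and 1385 in naive ESC, 385, 623 and 380 in CEpiLC, 342, 210 and 903 in SOX2-ON and 330, 383 and 488 in SOX2-OFF. β-catenin ranks were 4876, 5005 and 2657 in naive ESC, 1143, 3213 and 2717 in CEpiLC, 1790, 2940 and 1678 in SOX2-ON and 1327, 391 and 827 in SOX2-OFF, and the folds of SOX2-OFF (20.0, 14.2 and 32.4) and SOX2-ON (18.4, 9.38 and 19.4) overlapped. The rank of 391 comes from the SOX2-OFF list of 3423 peaks. No SOX2 peak overlapped the site in any of the 12 full SOX2 lists. At −1.5 kb (chr11:52284376-52284632, in a noncoding exon of A630014C17Rik) LEF1 was present in 3 of 3 CEpiLC and 0 of 3 naive ESC libraries, although 2 of 3 full naive ESC lists held a peak there.

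SOX2 instead occupied a site 3.6 kb upstream of Tcf7 (chr11:52286533-52287120, between genes), and it did so most strongly where SOX2 was low. The deposited folds were 30.7, 63.2 and 84.8 in CEpiLC and 32.2, 39.3 and 47.7 in SOX2-OFF, against 10.3, 25.1 and 24.3 in naive ESC. In SOX2-ON replicate 2 had a fold of 6.4 and the peaks of replicates 1 and 3 fell outside the strongest 20000, at ranks of 51475 and 24271. The ranks were 179, 37 and 23 in CEpiLC and 79, 162 and 136 in SOX2-OFF, and 17965, 928 and 826 in naive ESC. All 6 libraries of low SOX2 thus stood above all 6 of high SOX2, and β-catenin was present here in 5 of the 6 libraries of low and 1 of the 6 of high SOX2, though 4 of the 6 full lists of high SOX2 held a β-catenin peak.

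Over the whole Tcf7 locus the strength of SOX2 was 2.57 ± 0.47 in CEpiLC and 2.22 ± 0.16 in SOX2-OFF, and 1.14 ± 0.38 in naive ESC and 0.52 ± 0.07 in SOX2-ON (SD, n = 3 each). The difference of high minus low SOX2 was −1.57, with an exact permutation p of 0.005 when labels were exchanged within each cell line. Its 400 assignments allow no smaller value. Adjusted by the Benjamini-Hochberg method over 17715 genes, this permutation p became 0.0586 and missed the threshold of 0.05. Of the genes tested, 5.42% likewise had all low SOX2 libraries above all high ones within both cell lines.

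Another kind of Tcf7 site lay 42.0 kb past the gene start and beyond the gene's other end (chr11:52240917-52241126), in an intron of the neighbouring gene Skp1a and of the noncoding gene Gm26551. β-catenin was present in 6 of 6 libraries of high SOX2, with folds of 35.9, 27.7 and 23.5 in naive ESC and 11.2, 5.5 and 17.2 in SOX2-ON. None of the 6 full lists of low SOX2 held a β-catenin peak there. TCF7L1 was found in 5 of 6 libraries of high SOX2, with folds of 35.2, 44.0 and 60.8 in naive ESC, and TCF7L2 in 3 of 3 of naive ESC and in no full list of the other 3 conditions. No other site of the loci was called in 3 targets for naive ESC against CEpiLC, and the lists do not tie it to either gene. SOX2 was called at high SOX2 level at −11.9 kb, in 5 of 6 against 0 of 6 libraries, and TCF7L1 there in 3 of 3 SOX2-ON but 0 of 3 SOX2-OFF libraries. At +55.3 kb SOX2 and TCF7L1 were both called in naive ESC, and at +51.2 kb, 187 bp from the Skp1a start, β-catenin was called in CEpiLC.

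**Figure D2:**
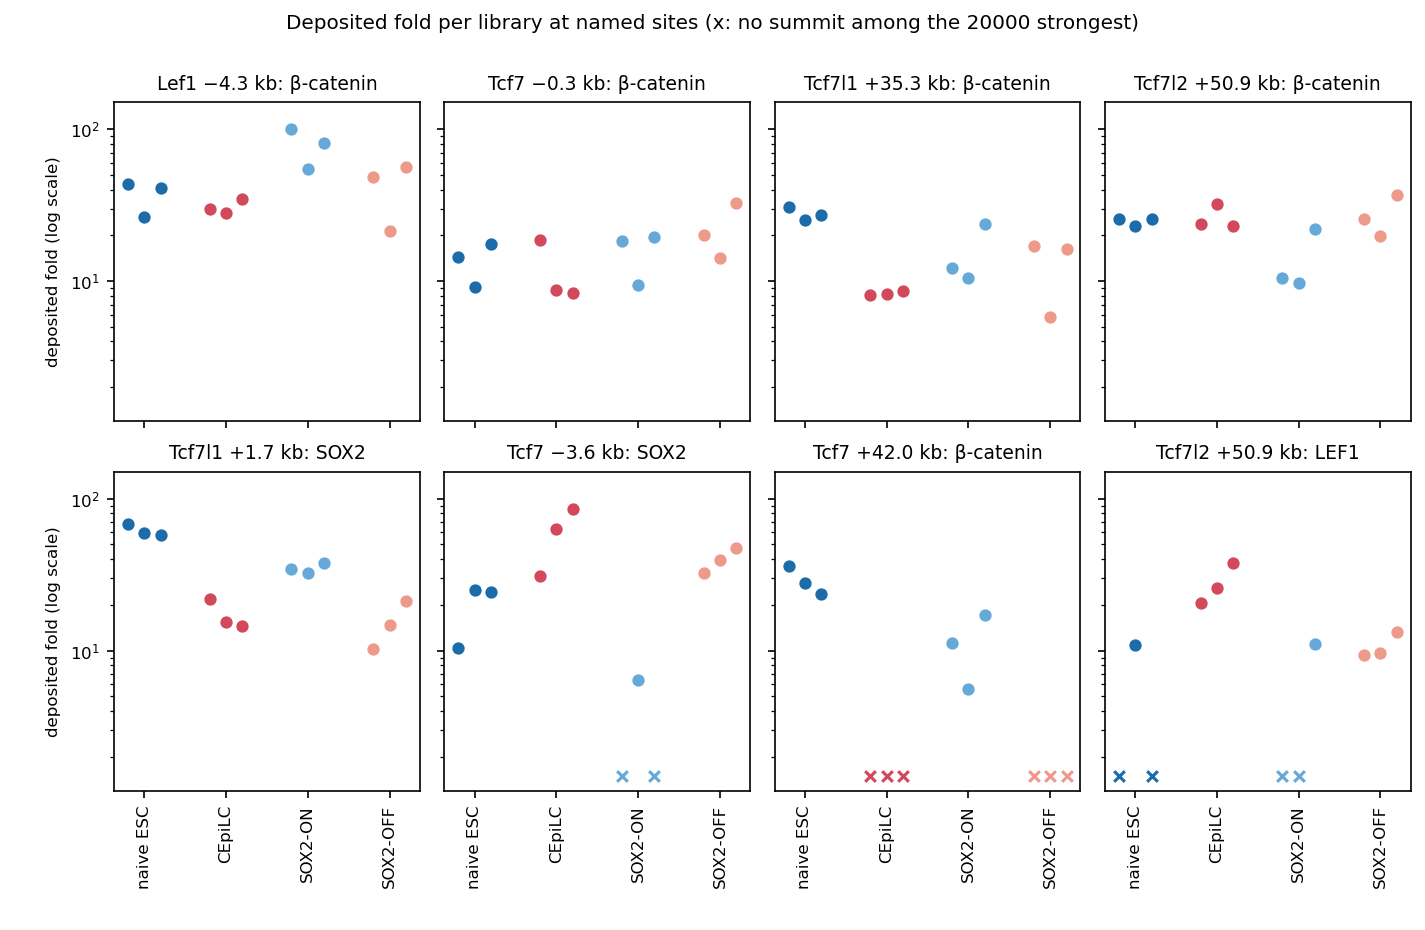
Deposited fold per library (log scale) for 1 target at each named site, with 3 replicates in each of the 4 conditions. A cross marks a library without a summit among the 20000 strongest. SOX2 at Tcf7l1 +1.7 kb is higher in the 6 libraries of naive ESC and SOX2-ON, and at Tcf7 −3.6 kb it is higher in the 6 libraries of CEpiLC and SOX2-OFF.

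Tcf7l1, which encodes the mostly repressing member, showed the opposite order for SOX2. A site 1.7 kb past its start (chr6:72787465-72787582, intron, 677 bp from the nearest coding exon) carried SOX2 in 12 of 12 libraries. It was among the strongest SOX2 peaks of naive ESC, with ranks of 3, 37 and 33 and folds of 68.2, 59.0 and 57.3. The ranks were 129, 185 and 209 in SOX2-ON, 497, 1244 and 1928 in CEpiLC and 1016, 1443 and 969 in SOX2-OFF, with folds of 32.2 to 37.7, 14.6 to 21.7 and 10.3 to 21.2. The libraries of high and low SOX2 did not overlap in either measure.

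The strength of SOX2 at the Tcf7l1 locus was 3.11 ± 0.62 in naive ESC, 2.07 ± 0.11 in SOX2-ON, 1.28 ± 0.30 in CEpiLC and 1.25 ± 0.09 in SOX2-OFF (SD, n = 3 each). The difference of high minus low SOX2 was 1.33 (exact permutation p = 0.005, 0.0586 after Benjamini-Hochberg adjustment). Over the genome 3.11% of genes had all high SOX2 libraries above all low ones within both cell lines. When the exon summits were put back, this difference fell to 0.59 (exact permutation p = 0.325), since coding exons of Tcf7l1 held the strongest SOX2 summit in CEpiLC and SOX2-OFF replicate 1, at ranks of 4 and 5.

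The partners of SOX2 at +1.7 kb were present mainly at high SOX2. β-catenin was found in 5 of 6 libraries of high and 1 of 6 of low SOX2, and TCF7L1 in 5 of 6 and 0 of 6, SOX2-ON replicate 1 being the library of high SOX2 without either summit. That β-catenin list did hold a peak over the site, at rank 478, with its summit in a coding exon. Outside coding exons the strongest summit of that list in the locus ranked 3895. Exon summits of this kind were set apart in the counts. SOX2 was found in 6 of 6 against 0 of 6 libraries at +19.0 kb (chr6:72770280-72770392, intron), with ranks from 4150 to 12253, and no full list of low SOX2 held a peak there. At −6.0 kb (chr6:72794807-72795301, between genes) SOX2 was found in 6 of 6 against 1 of 6 libraries and TCF7L1 in 5 of 6 against 0 of 6, although SOX2 peaks lay there in 5 of the 6 full lists of low SOX2. At Tcf7l1, SOX2 at +58.6 kb and β-catenin at −5.2 kb were also called in SOX2-ON. TCF7L1 was called in naive ESC at +153.2, +30.7 and +20.9 kb, joined at +30.7 kb by β-catenin, and β-catenin was called in CEpiLC at +1.1 kb, 84 bp from a coding exon.

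The β-catenin site at +35.3 kb was steady by presence and varied in strength. Its β-catenin folds were 30.7, 25.2 and 27.0 in naive ESC, 8.1, 8.2 and 8.6 in CEpiLC, 12.2, 10.4 and 23.8 in SOX2-ON and 17.0, 5.8 and 16.2 in SOX2-OFF. Naive ESC thus stood above the other 3 conditions in fold, though by rank it overlapped SOX2-ON, and SOX2-ON and SOX2-OFF overlapped. TCF7L1 occupied the same site in naive ESC at ranks of 805, 1079 and 989, in 2 libraries of SOX2-ON and in 3 of SOX2-OFF. At the far end of the window a TCF7L2 site (chr6:72616750-72616768) lay in the UTR of the neighbour Tgoln1, 40 bp from a coding exon, with 3 of 3 libraries in CEpiLC and SOX2-OFF, peaks in all 12 full TCF7L2 lists and no other target among the strongest peaks. This site was chosen after its values were seen.

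At Tcf7l2, which both activates and represses, β-catenin, LEF1 and TCF7L1 shared the site 50.9 kb into the gene, and SOX2 was found there in 1 of 12 libraries. LEF1 ranked it at 196, 301 and 164 in CEpiLC and at 3029, 244 and 806 in SOX2-OFF. In naive ESC only replicate 2 had it among the strongest 20000, at rank 1274, and in SOX2-ON only replicate 3, at rank 4448, while 3 more of these libraries held a weaker peak there. TCF7L1 ranks were 1032, 1029 and 1257 in naive ESC, 1610, 618 and 464 in CEpiLC and 363, 280 and 437 in SOX2-OFF, and in SOX2-ON 1553 and 1654 in replicates 2 and 3 with no peak in replicate 1. β-catenin ranks were 1775, 699 and 1383 in naive ESC, 755, 466 and 617 in CEpiLC, 5346, 2774 and 1283 in SOX2-ON and 941, 195 and 681 in SOX2-OFF. TCF7L2 was present in 3 of 3 SOX2-OFF and 0 of 3 SOX2-ON libraries, the single call of the loci for SOX2-OFF, and 1 full SOX2-ON list held a peak.

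Over the Tcf7l2 locus as a whole β-catenin and the 3 TCF/LEF proteins had a higher mean strength at low SOX2, and none of these differences passed after adjustment. High minus low SOX2 was −0.99 for LEF1 (exact permutation p = 0.005, adjusted p = 0.247), −0.48 for β-catenin (p = 0.01, adjusted 0.0934), −0.35 for TCF7L1 (p = 0.02, adjusted 0.209) and −0.53 for TCF7L2 (p = 0.035, adjusted 0.493). For TCF7L1 a minimum fold of 5 brought the difference to −0.16, with an exact permutation p of 0.67. In the replicate block, labels were exchanged only between same-numbered libraries of a line. The exact permutation p was then 0.0625 for TCF7L1, 0.125 for TCF7L2 and 0.03125 for LEF1 and for β-catenin. Stronger binding at low SOX2 with an unadjusted permutation p under 0.05 was found for 5.36% of genes with LEF1, 10% with β-catenin, 4.21% with TCF7L1 and 3.85% with TCF7L2.

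SOX2 had a summit in the Tcf7l2 locus in 3 of 3 libraries of every condition, and its calls in CEpiLC lay near the start. At −0.2 kb (chr19:55741398-55741954, between genes) SOX2 was present in 3 of 3 CEpiLC and 0 of 3 naive ESC libraries, with ranks of 873, 1217 and 1943 in CEpiLC, and in 2 of 3 SOX2-OFF and 1 of 3 SOX2-ON libraries. A SOX2 peak did lie there in 4 of the 6 full lists of high SOX2. At +4.8 kb (chr19:55746474-55746570, intron) SOX2 and β-catenin were both present in 3 of 3 CEpiLC and 0 of 3 naive ESC libraries, at SOX2 ranks of 1942, 2049 and 4471. The difference in SOX2 strength over the locus was −0.73 between naive ESC and CEpiLC and 0.25 between SOX2-ON and SOX2-OFF, each with exact permutation p = 0.1, the smallest possible. The 2 differences themselves differed by −0.98, with a permutation p of 0.005 that became 0.218 after adjustment. At −28.9 kb (chr19:55712780-55712965) β-catenin was found in 5 of 6 libraries of high and 0 of 6 of low SOX2, with no peak in the full lists of low SOX2, and TCF7L1 was called there in naive ESC. The site at +52.8 kb (chr19:55794516-55794679, intron) had β-catenin in 3 of 3 CEpiLC and SOX2-ON libraries and TCF7L1 in 3 of 3 naive ESC and 0 of 3 CEpiLC libraries. TCF7L1 was called in naive ESC at +50.5 kb and SOX2 in SOX2-ON at +161.4 kb.

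**Figure D3:**
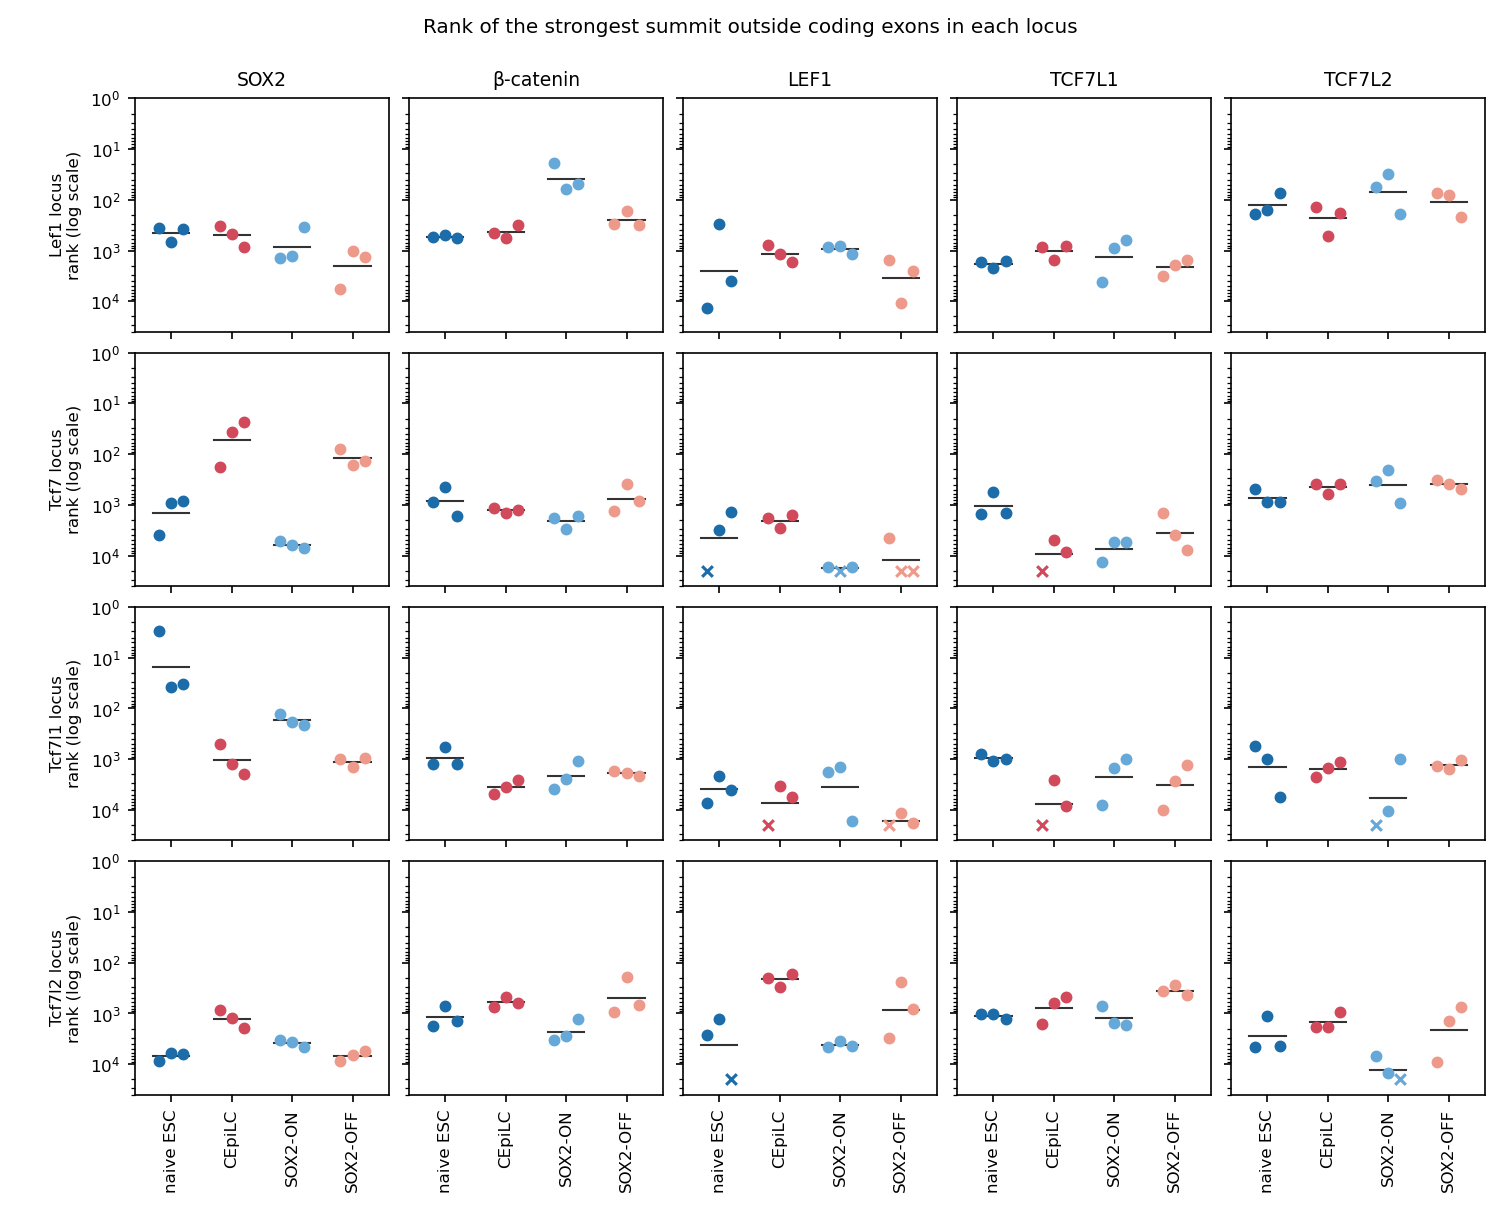
Rank of the strongest summit outside coding exons in each locus (rows) for each target (columns), on a reversed log scale with rank 1 at the top, for 3 libraries in each of the 4 conditions. Lines mark geometric means and crosses mark libraries without a summit among the 20000 strongest, drawn at 20001. SOX2 stands highest at Tcf7l1 in naive ESC and at Tcf7 in CEpiLC and SOX2-OFF.

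Each assayed TCF/LEF protein had a summit at its own gene in at least 3 of its 12 libraries, though not with equal strength. This was common, since 18706 of 21938 protein-coding genes had as much for LEF1, 17518 for TCF7L1 and 18593 for TCF7L2. The best LEF1 summits at Lef1 ranked 13384, 306 and 3987 in naive ESC, 781, 1167 and 1674 in CEpiLC, 868, 806 and 1178 in SOX2-ON and 1523, 10914 and 2508 in SOX2-OFF. The mean LEF1 strength of the conditions lay between 0.76 and 1.33, and the SD was 0.84 in naive ESC and 0.45 in SOX2-OFF. All 3 SOX2-ON libraries ranked above all 3 of SOX2-OFF (difference 0.57, exact permutation p = 0.1, the smallest possible), whereas the naive ESC libraries spanned both. How many other genes separate in this way was not counted. The rank of 10914 comes from the SOX2-OFF list of replicate 2, which holds 17493 peaks. TCF7L1 ranked 805, 1079 and 989 at Tcf7l1 in naive ESC, and in CEpiLC it had no summit in replicate 1 and ranks of 2582 and 8457 in the others (naive ESC minus CEpiLC 0.90, exact permutation p = 0.1). Replicate 1 of CEpiLC TCF7L1 is the list of 1628 peaks, and its part in this difference was not tested. TCF7L2 ranked between 757 and 9244 at Tcf7l2 in naive ESC, CEpiLC and SOX2-OFF, and in SOX2-ON at 6970 and 15089 with 1 library without a summit. In each of the 12 TCF7L2 libraries the summit at Lef1 ranked above those at the other 3 genes, its own included.

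Of the 20 pairs of gene and target, 0 passed the adjusted threshold in the exact permutation test of high against low SOX2, and 6 had an unadjusted p under 0.05. Of these 6 pairs, 1 was stronger at high SOX2 and 5 at low SOX2. Which pairs had such a p changed with the replicate block, as given in the last section. The other 14 differences lay between −0.31 and 0.53, with exact permutation p from 0.07 to 0.86. Over the genome 0 genes passed for any target as well, and 8.73% of genes for SOX2 had an unadjusted p under 0.05 with stronger binding at high SOX2 and 14.2% with stronger binding at low SOX2. An adjusted p under 0.05 needs 10% of all genes at the smallest p of 0.005, a share that no target reached.

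Presence calls were then set beside their share over the genome. Between naive ESC and CEpiLC, 21 pairs of site and target were present in 3 of 3 naive ESC and 0 of 3 CEpiLC libraries and 9 the reverse. This balance depended on the lists, with 9 against 8 calls when lists were of equal length within a target and 5 against 7 in the 5000 strongest peaks. Of the 21, 14 belonged to TCF7L1, out of 27 sites with TCF7L1 in at least 3 of 12 libraries, and over the genome 47.4% of such TCF7L1 sites were called. For SOX2 the counts were 4 and 4 of 25 sites, beside 9.96% and 10.5% of genome sites. For β-catenin they were 2 and 3 of 30, beside 21% and 14.8%. For LEF1 they were 0 and 2 of 10, beside 0.193% and 26%. For TCF7L2 they were 1 and 0 of 11, beside 5.1% and 9.73%. No TCF7L1 site was called in CEpiLC, beside 0.543%. In the full lists of CEpiLC, 20 of the 21 pairs called in naive ESC still had no peak, whereas of the 9 pairs called in CEpiLC 1 was without a peak in the full naive ESC lists. These counts cannot be compared directly, since the full lists differ in length. The median was 15201 peaks in CEpiLC and 76699 in naive ESC for β-catenin, and 16518 and 236304 for LEF1. It was 39683 and 136687 for SOX2, 74815 and 117055 for TCF7L1, and 420469 and 73121 for TCF7L2.

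Between SOX2-ON and SOX2-OFF, 10 pairs were called in SOX2-ON, 5 with SOX2, 4 with β-catenin and 1 with TCF7L1, and 1 pair in SOX2-OFF, with TCF7L2. The genome shares in SOX2-ON were 18% for SOX2, 8.1% for β-catenin and 2.45% for TCF7L1, and the share in SOX2-OFF was 2.3% for TCF7L2. The 0 calls in SOX2-ON for LEF1 and TCF7L2 stood beside 7.91% and 2.74%. The 0 calls in SOX2-OFF for SOX2, β-catenin, LEF1 and TCF7L1 stood beside 2.73%, 1.04%, 2.44% and 1.14%. By SOX2 level, 10 pairs were called at high SOX2, 3 with SOX2 (6.21% of genome sites), 3 with β-catenin (6.88%) and 4 with TCF7L1 (12.8%), and 0 with LEF1 (1.23%) or TCF7L2 (1.95%). At low SOX2 3 pairs were called, SOX2 at Lef1 +7.6 kb and Tcf7l2 −0.2 kb (3.81%) and β-catenin at Tcf7 −3.6 kb (5.76%). LEF1 (7.29%), TCF7L1 (0.936%) and TCF7L2 (3.61%) had 0. With all deposited peaks the calls for low SOX2, CEpiLC and SOX2-OFF went to 0, and with lists of equal length within a target, ordered by p-value, the calls for low SOX2 rose to 6 and those for high SOX2 fell to 4. Leaving out the 5 lists under 5000 peaks, chosen after seeing the data, kept 21 calls in naive ESC and 10 in SOX2-ON and raised those in CEpiLC from 9 to 15, those in SOX2-OFF from 1 to 4 and those of low SOX2 from 3 to 6. Groups that lost a list, all from CEpiLC or SOX2-OFF, were then called on 2 of 2 libraries, an easier rule than 3 of 3.

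The peaks in coding exons belonged to Tcf7l1 and, less often, to Tcf7l2, and they stood apart by replicate number. Of the 310 exon summits, 237 lay in Tcf7l1, 50 in Tcf7l2, 16 in Lef1 and 7 in Tcf7. At Tcf7l1, which has 13 coding exons, all 20 libraries of replicate 1 had an exon summit, with a median of 8.5 exons, whereas 6 of 20 libraries of replicate 2 and 14 of 20 of replicate 3 had one. The highest fold was 199 in SOX2-OFF LEF1 replicate 1, where it was the peak of rank 3, and 8.36 in replicate 2 and 17.8 in replicate 3. At Tcf7l2, which has 18 coding exons, summits lay in 12 exons in CEpiLC SOX2 replicate 1 and in 13 in CEpiLC TCF7L2 replicate 1, and no other library had more than 3.

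**Figure D4:**
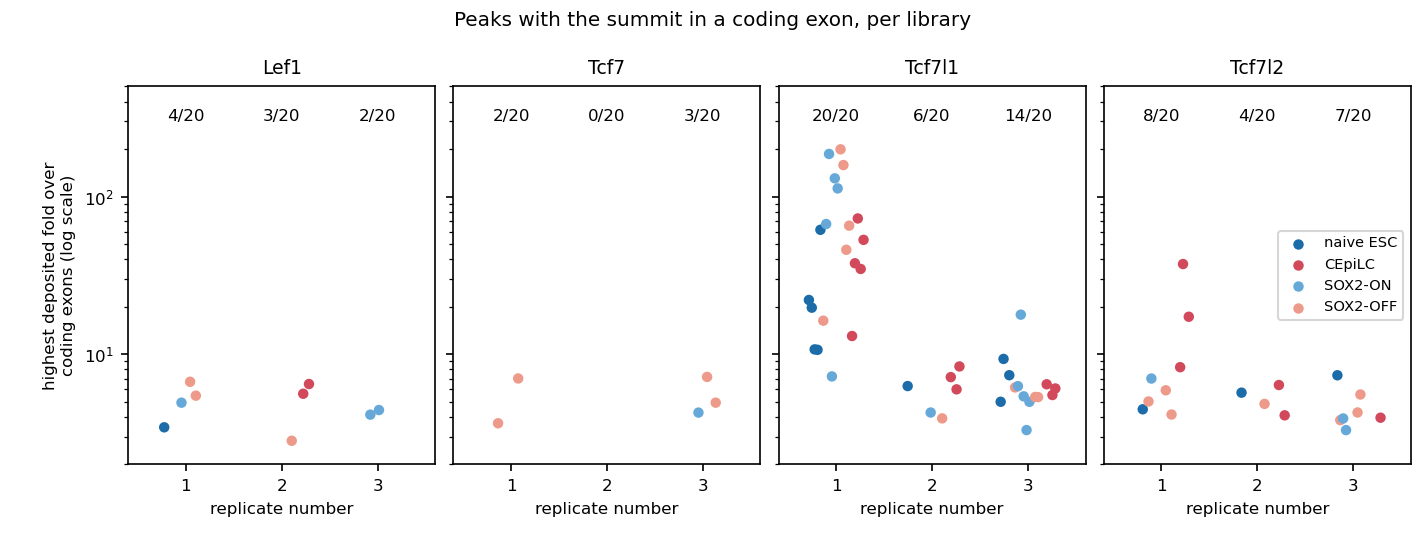
Highest deposited fold (log scale) among peaks with the summit in a coding exon of each gene, 1 point per library coloured by condition, by replicate number. The counts at the top give libraries with such a peak out of 20, which are 20, 6 and 14 at Tcf7l1.

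Other genes of the WNT pathway, 46 in all, from Ctnnb1, the gene of β-catenin, and the corepressors Tle1 to Tle5 to receptors such as Lgr5 and feedback genes such as Axin2, were read in the same way. For each target 0 of them passed the adjusted threshold of the permutation test. With an unadjusted permutation p under 0.05, SOX2 was stronger at high SOX2 at 3 and at low SOX2 at 16 of 46 genes, with a median difference of −0.23 beside −0.04 over 17715 genes, of which 8.73% and 14.2% had such a p. Of 42 genes tested for β-catenin 6 and 5 did so, of 45 for LEF1 0 and 6, of 43 tested with TCF7L1 6 and 7, and of 45 tested with TCF7L2 2 and 6. Over all genes tested, the shares with such a p and stronger binding at high and at low SOX2 were 12.4% and 10% with β-catenin. They were 3.14% and 5.36% with LEF1, 9.74% and 4.21% with TCF7L1 and 4.5% and 3.85% with TCF7L2. The medians of these targets over the list lay between −0.13 and −0.04 beside 0.00 to 0.03 over all genes tested.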

How the data were processed

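ChIP was performed on cells fixed with DSG and then formaldehyde, and reads were single-end and 76 bp long. The authors trimmed reads, aligned them to mm10 with BWA and called peaks with MACS2 (nf-core pipeline, default q-value threshold of 0.05). They deposited 60 lists, one per library, without pooling replicates. Of the 64 samples, 4 were inputs, which were not analysed here. Which input served which library is not given in the sources used here. Per peak, a list holds a fold over background (ratio), a −log10 p-value and a −log10 q-value, a score and a summit, as deposited by the authors. The fold ordered the peaks, and no read counts were used.

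Genes were placed with GENCODE M21 and sequence was read from GRCm38. Strength is log10(20001/rank) of the best summit outside coding exons, and a library with no summit among the 20000 strongest got rank 20001. High and low SOX2 were compared by exact permutation of labels inside each cell line (two-sided, 400 assignments), adjusted by the Benjamini-Hochberg method over all protein-coding genes with a summit in at least 3 of 12 libraries of the target. Sites were counted as tested by the same minimum. Presence in 3 of 3 against 0 of 3 libraries, or in at least 5 of 6 against at most 1 of 6, was called without a test. A peak in a full list was one that overlapped the site by at least 1 bp, and peaks with the summit in a coding exon were not removed from this check. Named sites were the first 3 of each gene by groups at 3 of 3 libraries and the called sites, at most 5 per contrast and target by fold, and further sites are marked in the text. The members and lists were chosen with earlier results of these data known. The numbering of replicates was checked by correlating the deviations of same-numbered libraries from their group means. For TCF7L1 in SOX2-ON and SOX2-OFF all 3 correlations were over 0.1 (0.139 to 0.213), and in the other comparisons none of the correlations was. The permutation p in the text do not use this pairing, except where the replicate block is named. For TCF7L1 the block permutation p was 0.0625 at Tcf7l2 and 0.03125 at Tcf7l1, beside 0.02 and 0.07 without the block. The permutation test was tried on the real ranks, shuffled within each cell line, with a large shift added to some genes. The site caller was tried on simulated summits. Python 3.11.15, numpy 2.4.6, pandas 2.3.3, scipy 1.17.1, pysam 0.24.0 and matplotlib 3.10.9 were used.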

Additional observations from a re-analysis of the deposited data

How the results depend on the processing

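With all deposited peaks there were 67 reproducible sites. Calls numbered 48 for naive ESC against 0 for CEpiLC, 16 for SOX2-ON against 0 for SOX2-OFF, and 19 at high against 0 at low SOX2. With the 5000 strongest peaks there were 16 reproducible sites, 5 calls for naive ESC against 7 for CEpiLC, 1 for SOX2-ON against 1 for SOX2-OFF and 3 at high against 2 at low SOX2, and 2 pairs of gene and target passed the threshold, SOX2 at Tcf7 (−1.53) and SOX2 at Tcf7l1 (1.33), each with an adjusted permutation p of 0.0466. Ordering by p-value left 0 calls in SOX2-OFF, as did a fold of at least 5. Lists of equal length within a target gave 9 calls for naive ESC against 8 for CEpiLC, 4 for SOX2-ON against 0 for SOX2-OFF and 4 at high against 6 at low SOX2, and 1 pair passed, β-catenin at Tcf7l2 (−0.59, adjusted permutation p = 0.0307). A flank of 10 kb gave 13 calls in naive ESC, 6 in SOX2-ON and 6 at high SOX2. Without the 5 lists under 5000 peaks, an alternative chosen after seeing the data, there were 15 calls in CEpiLC, 4 in SOX2-OFF and 6 at low SOX2. The groups that lost a list were called there on 2 of 2 libraries, and the part of this rule in the rise was not tested. The share of sites with SOX letters was 25.6% within 50 bp of the summit. The causes of these changes were not tested, except that shorter lists and a shorter flank hold fewer sites by construction.

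Leaving out a replicate number gave 44 to 51 reproducible sites, 25 to 32 calls for naive ESC and 14 to 25 for CEpiLC. It gave 11 to 21 calls for SOX2-ON and 4 to 8 for SOX2-OFF. In these counts all 2 libraries stood for 3 of 3. By SOX2 level there were 3 to 7 calls at high and 0 to 2 at low SOX2. The rule of at least 5 of 6 against at most 1 of 6 libraries cannot be kept without a replicate. The counts by SOX2 level therefore cannot be compared with those of the main setting. Without a replicate the smallest permutation p is 0.0556, so no count of pairs past the threshold was made. Over 8 alternatives the lowest adjusted p of the 20 pairs lay between 0.0307 and 0.243. With the replicate block 0 pairs passed, and the lowest adjusted permutation p was 0.243. Its smallest p of 0.03125 can pass after adjustment only if most genes tested have it, so this count says nothing about the main test. The pairs with an unadjusted p under 0.05 were not the same ones. TCF7L1 and TCF7L2 at Tcf7l2 dropped out, with block permutation p of 0.0625 and 0.125. LEF1 (0.47) and TCF7L1 (0.53) at Tcf7l1, both stronger at high SOX2, came in at 0.03125, the smallest p of the block. The 6 named differences kept their sign under the alternatives run, whereas the larger count turned from naive ESC to CEpiLC in the 5000 strongest peaks and from high to low SOX2 in lists of equal length. The lists hold no read depth, so a missing peak in a short list cannot be told apart from absent binding.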
